A study of Mus musculus with 3 samples.

Results

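The 32 genes described here encode the machinery with which the endoplasmic reticulum (ER) takes in, folds, trims and inspects secreted and membrane proteins, together with factors of the unfolded protein response. They were matched by gene symbol in the deposited feature lists, where all 32 were found among 31053 genes. Their level was read in each cell class of single-cell RNA libraries from mouse cochlear explants. By role they are 5 folding chaperones, 6 co-chaperones or stress-secreted factors, 4 protein disulfide isomerases, 2 stress transcription factors, 3 factors of ER-associated degradation, 3 translocon subunits, 4 translocon-associated proteins, 3 signal peptidase subunits and 2 oligosaccharyltransferase subunits.

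The explants came from rtTA/tet-on-Myc/tet-on-NICD mice aged 4 to 6 weeks, in which doxycycline (Dox) switches on MYC and the Notch intracellular domain (NICD). Dox at 2 µg/ml for 4 days gave 2 libraries, called Dox replicate 1 and Dox replicate 2, and sterile water gave 1 Control library. The control explants carry the same alleles, each library pools 4 cultures, and the sources used here do not give the promoter that drives rtTA. Because the Control is a single library, the spread in every test below comes from the 2 Dox libraries alone (residual degrees of freedom: 1) and may be in part technical. Dissected sensory epithelium was dissociated with trypsin and captured with the 10x Genomics 3' v3.1 chemistry, which counts molecules by unique molecular identifiers (UMIs).

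Proteins bound for secretion enter the ER through the Sec61 translocon, lose their signal peptide to signal peptidase and receive sugar chains from oligosaccharyltransferase. HSPA5 (also known as BiP) and HSP90B1 hold unfolded chains, calreticulin and calnexin hold glycosylated ones, and disulfide isomerases form their disulfide bonds. When unfolded protein builds up, the sensors IRE1, PERK and ATF6 raise chaperone production through XBP1, ATF4 and cleaved ATF6, and chains that fail to fold are sent back to the cytosol for destruction. In the cochlea, non-sensory epithelia and fibrocytes make much of the extracellular matrix and of the membranes that face the endolymph, all of it secreted through this pathway.

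The promoters of 25 of the 32 genes were found in RefSeq (GRCm38.p6, from 250 bases before to 50 after the annotated start). The mammalian ER stress element of 19 bases, CCAAT and CCACG with any 9 bases between them, on either strand, stood in 7 of these 25 (28.0%), against 37 of 27025 genes with a RefSeq promoter (0.137%). The shorter element of 11 bases, ATTGG and CCACG with any 1 base between them, stood in 2 of the 25 (8.0%; 0.044% of all genes), CACGTG in 3 (8.093% of all genes) and TGACGTGG in 0 (0.714% of all genes). A match describes letters in a window and is not evidence that a factor binds there. The stretches that hold the element are printed because several of these genes are the ones whose level differed between the libraries, and Hspa5, Canx and Creld2 were added after their values had been seen. Each line runs 5′ to 3′ along the gene's own strand. Capitals mark the fixed letters of the element, which reads CGTGG before ATTGG where it lies in reverse. The stretches are Hspa5 at chr2:34772013-34772055 (plus strand), Dnajc3 at chr14:118937815-118937857 (plus), Pdia6 at chr12:17266479-17266521 (plus), Canx at chr11:50325788-50325830 (minus), Calr at chr8:84847063-84847105 (minus), Creld2 at chr15:88819508-88819550 (plus), Herpud1 at chr8:94386365-94386399 (plus) and Hsp90b1 at chr10:86705521-86705668 (minus).
Hspa5: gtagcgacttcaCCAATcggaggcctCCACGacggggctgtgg
Dnajc3: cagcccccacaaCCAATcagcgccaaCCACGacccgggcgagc
Pdia6: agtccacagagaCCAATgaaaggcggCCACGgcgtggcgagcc
Canx: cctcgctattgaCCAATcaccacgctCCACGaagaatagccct
Calr: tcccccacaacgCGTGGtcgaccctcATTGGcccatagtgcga
Creld2: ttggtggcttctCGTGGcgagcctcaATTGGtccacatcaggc
Herpud1: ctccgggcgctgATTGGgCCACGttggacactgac
Hsp90b1: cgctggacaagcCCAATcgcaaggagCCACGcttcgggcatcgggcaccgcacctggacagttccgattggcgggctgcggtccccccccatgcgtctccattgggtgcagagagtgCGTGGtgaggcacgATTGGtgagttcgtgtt

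**Figure D1:**
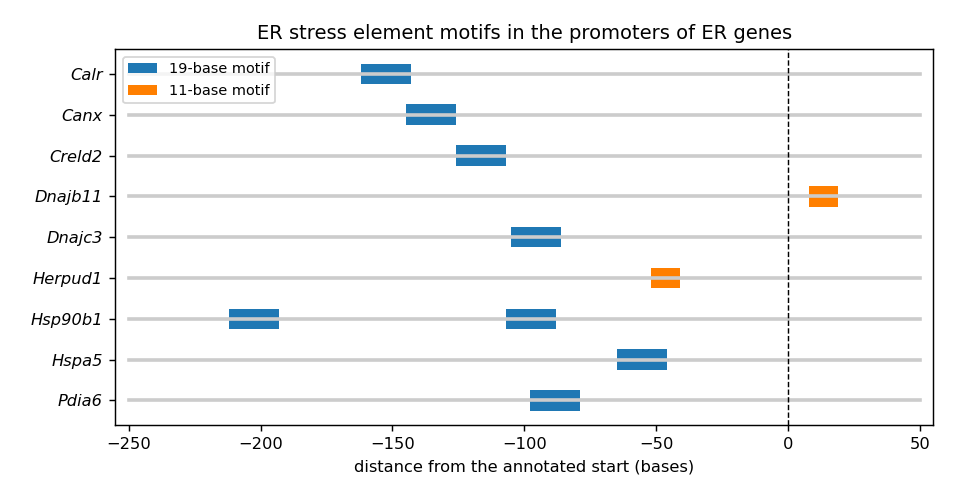
Position of the 19-base element (blue) and of the 11-base element (orange) along the RefSeq promoters of the 9 members that hold either, in bases from the annotated start (dashed line). Hsp90b1 holds the 19-base element at 2 places, first bases at -212 and -107, and the 19-base element nearest to a start is that of Hspa5 at -65.

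The libraries hold 788 barcodes and 20309102 UMIs in Dox replicate 1, 1095 and 33385927 in Dox replicate 2, and 512 and 5436731 in the Control. A total of 125 barcodes occur in more than 1 library, 68 of them in all 3, and the shallower copy held 0.259% to 1.68% of the UMIs of the deepest one. The 193 shallower copies were left out, which together with limits on genes and mitochondrial RNA left 595, 925 and 283 cells with median depths of 20441, 29877 and 12829 UMIs. The cells were clustered without the 32 genes, into 17 clusters of which 13 could be named from markers. They were not sensory epithelium alone, since fibroblast-like, pericyte-like, glia-like and macrophage-like cells were present and hair cells formed no cluster. Cells with little Malat1, a nuclear RNA, made up 33.95% and 17.3% of the Dox cells and 19.43% of the Control cells.

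Cell classes with enough cells in all 3 libraries could be tested. The clusters of epithelium that could be set side by side were named for their leading gene: a Vmo1-led cluster (17 and 87 Dox cells, 18 Control cells), in which Vmo1 and Otx2 of the Reissner and vascular marginal list led, an Epyc-led cluster (39 and 61, against 12) and a supporting cell-like cluster (58 and 28, against 23) with Sox2, Hes5, Lfng and Fabp7 among its markers. The pooled epithelium (176 and 394 Dox cells, 54 Control cells) also held a Fut9-led cluster with 24 and 120 Dox cells and 0 Control cells, and a Gabrp-led cluster with 38 and 98 Dox cells and 1 Control cell, so its makeup differed between the libraries. As a check of the transgenes, Notch1 RNA was higher with Dox in each of these epithelial classes. In the Vmo1-led cluster it stood at 507 and 312 CPM with Dox and 33.8 CPM in the Control, and Myc at 52.2 and 35.2 CPM with Dox and 11.6 CPM in the Control. CPM is counts scaled to the usual common total, taken here over the summed UMIs of a class in a library after TMM scaling, and 3' reads do not separate transgene from endogenous RNA. Both genes were called by edgeR's quasi-likelihood test in the Vmo1-led cluster, the pooled epithelium and glia-like cells, while in the supporting cell-like and Epyc-led clusters the call held for Notch1 and not for Myc, and in macrophage-like cells for neither.

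As a share of a cell's own UMIs, the 32 genes together made up less in the median Dox cell than in the median Control cell of each epithelial cluster tested. In the Vmo1-led cluster the median cell spent 0.511% and 0.553% of its UMIs on them with Dox and 0.757% in the Control, and the interquartile ranges were 0.462 to 0.665%, 0.455 to 0.667% and 0.611 to 0.984% in that order. In the Epyc-led cluster the medians were 0.606% and 0.64% with Dox and 0.747% in the Control, and in the supporting cell-like cluster 0.497% and 0.505% with Dox and 0.61% in the Control. Glia-like cells had 0.726% and 0.925% with Dox and 0.799% in the Control, so there the Dox libraries lay on either side of the Control. Macrophage-like cells had 0.657% and 0.635% with Dox and 0.705% in the Control. The quartile ranges of Dox and Control cells overlapped in each of these classes.

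**Figure D2:**
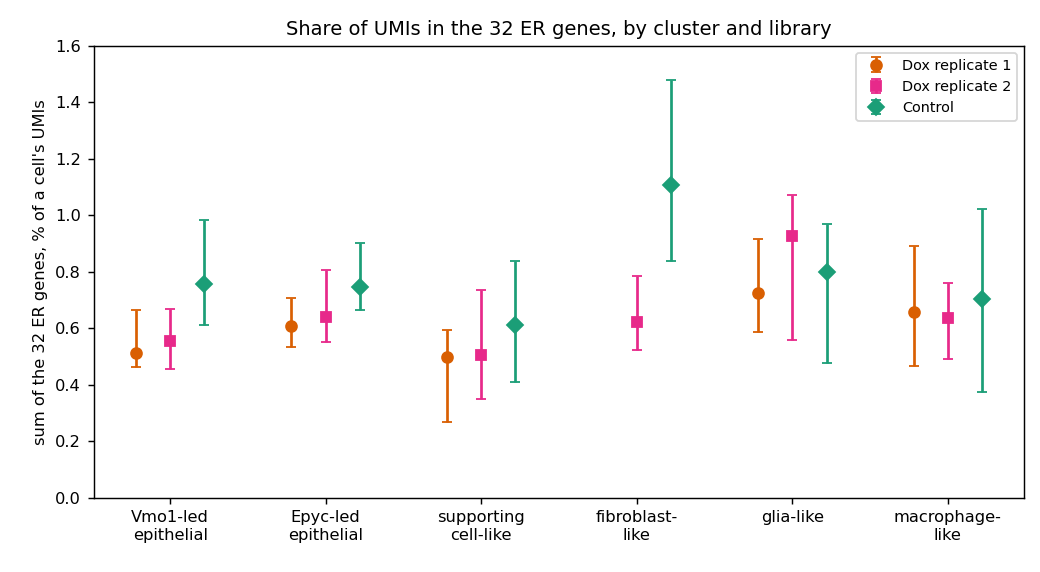
Sum of the 32 genes as a percentage of a cell's UMIs (vertical axis), by cluster and library, with the median cell as the point and the quartiles as the bar. Both Dox medians lie below the Control median in the 3 epithelial clusters, and the fibroblast-like cluster, shown without the 5 cells of Dox replicate 1, has 0.622% in Dox replicate 2 and 1.106% in the Control.

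In the Vmo1-led epithelial cluster, 16 of the 32 genes fell with Dox and 0 rose. All 5 folding chaperones and all 4 disulfide isomerases fell, as did 4 of the 6 co-chaperones or secreted factors, the transcription factor Xbp1, and single subunits of the translocon-associated complex (Ssr1) and of signal peptidase (Spcs3). The falls were 1.52-fold to 2.66-fold, the median log2 fold change of the 32 genes was -0.59, against 0.01 over all 10138 genes tested, and 27 of the 32 lay below 0. Over all genes tested, 8.94% fell and 8.10% rose (edgeR's quasi-likelihood test, Benjamini-Hochberg adjusted p of at most 0.05). DESeq2's Wald test called 5 of the 16, namely Hspa5, Hsp90b1, Calr, P4hb and Pdia6. Of all 10138 genes, 237 fell by that test.

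Among the folding chaperones, Hspa5, the master ER chaperone, stood at 801 and 843 CPM in the Dox libraries and at 1412 CPM in the Control. Hsp90b1, the ER member of the HSP90 family, stood at 794 and 837 CPM with Dox and at 1644 CPM in the Control, a log2 fold change of -1.01 with an adjusted p of 0.00233 in edgeR's quasi-likelihood test (SE 0.13). For both genes the Dox libraries lay close together and well below the Control. Calr, the calcium-binding lectin chaperone calreticulin, stood at 357 and 381 CPM with Dox and at 777 CPM in the Control (log2 fold change -1.07, SE 0.14). Canx, its membrane-bound partner calnexin, stood at 348 and 317 CPM with Dox and at 503 CPM in the Control, the mildest of the 16 falls at -0.60. Hyou1, a nucleotide exchange factor for HSPA5, stood at 74.3 and 56.6 CPM with Dox and at 128 CPM in the Control. In every one of the 5 chaperones the higher Dox library was below the Control, and their log2 fold changes lay between -1.07 and -0.60.

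Of the co-chaperones and secreted factors, 4 of 6 fell. Sdf2l1, an ER-resident partner of DNAJB11 and HSPA5, stood at 33.2 and 48.4 CPM with Dox and at 113 CPM in the Control (log2 fold change -1.41, SE 0.25, adjusted p = 0.00898, edgeR). Dnajc3, a J-domain co-chaperone of HSPA5, stood at 64.0 and 81.9 CPM with Dox and at 178 CPM in the Control, and Creld2, a secreted factor made under ER stress, at 34.8 and 43.4 CPM with Dox and at 83.4 CPM in the Control. All 3 had both Dox libraries far below the Control. Dnajb11, another J-domain protein, fell by 0.72 on the log2 scale. Dnajb9, which holds the sensor IRE1 in its inactive form, stood at 30.8 and 25.7 CPM with Dox and at 38.0 CPM in the Control and was not called (adjusted p = 0.304, edgeR). Manf, a secreted stress factor, stood at 104 and 136 CPM with Dox and at 174 CPM in the Control and was not called either.

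Each of the 4 protein disulfide isomerases fell. Pdia6 stood at 157 and 202 CPM with Dox and at 407 CPM in the Control (log2 fold change -1.17), and P4hb, which also serves as a subunit of the collagen prolyl 4-hydroxylase, at 139 and 149 CPM with Dox and at 315 CPM in the Control (-1.12). Pdia3, which works with calnexin and calreticulin on glycoproteins, stood at 420 and 412 CPM with Dox and at 698 CPM in the Control, and Pdia4 at 100 and 88.1 CPM with Dox and at 148 CPM in the Control. The Dox libraries were on the same side of the Control for all 4, with log2 fold changes between -1.17 and -0.66.

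Of the stress transcription factors, Xbp1 stood at 71.1 and 80.4 CPM with Dox and at 130 CPM in the Control (log2 fold change -0.76, adjusted p = 0.0315, edgeR's quasi-likelihood test), while Atf6 at 27.7 and 32.2 CPM with Dox and 37.0 CPM in the Control was not called. Gene counts do not tell spliced from unspliced Xbp1. None of the 3 degradation factors was called. Herpud1, a membrane protein of the degradation complex, stood at 41.1 and 39.4 CPM with Dox and at 24.3 CPM in the Control (log2 fold change 0.72), and Edem1 and Sel1l had log2 fold changes of -0.16 and -0.41.

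The intake machinery was mixed. Spcs3, a signal peptidase subunit, stood at 51.4 and 46.7 CPM with Dox and at 127 CPM in the Control (log2 fold change -1.38), while Spcs1 at -0.38 and Spcs2 at -0.57 were not called. Ssr1 stood at 68.0 and 66.6 CPM with Dox and at 128 CPM in the Control (-0.93), against 98.0 and 117 CPM with Dox and 66.5 CPM in the Control for Ssr2, which was not called at 0.70. The 3 translocon subunits had log2 fold changes between -0.30 and 0.48, and the oligosaccharyltransferase subunits Ostc and Ddost had -0.41 and -0.47; none of these 5 was called. Sec61b, a translocon subunit, had 267 and 287 CPM with Dox and 271 CPM in the Control, so the Dox libraries lay on either side of the Control.

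**Figure D3:**
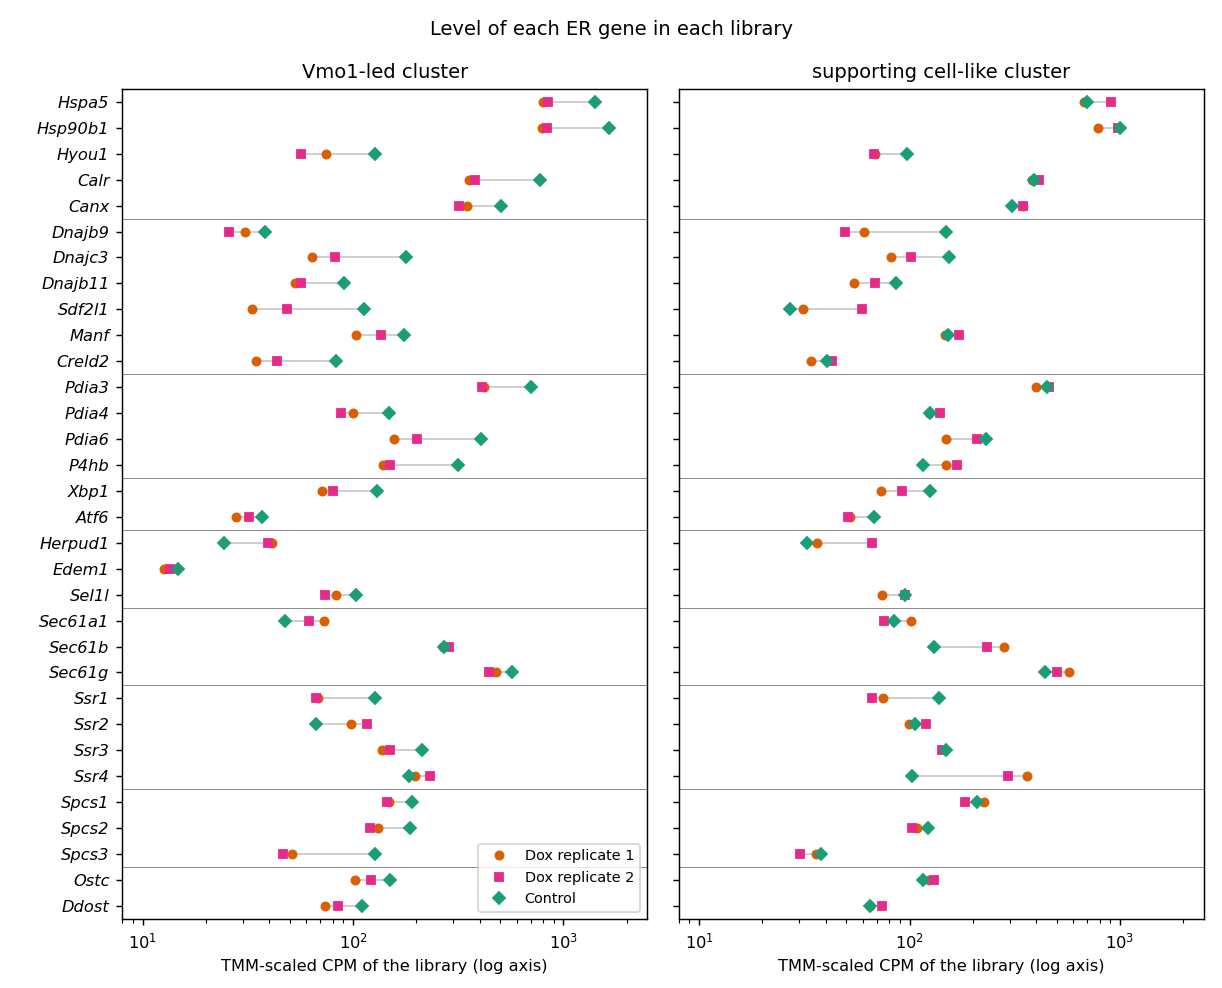
Level of each of the 32 genes in TMM-scaled CPM (horizontal, log axis) in Dox replicate 1, Dox replicate 2 and the Control, in the Vmo1-led cluster (left) and the supporting cell-like cluster (right). In the left panel the Control lies to the right of both Dox libraries for 27 genes, among them all chaperones and disulfide isomerases, and in the right panel for 12 genes.

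Levels in single cells, without TMM scaling, showed the same order as the sums for the 16 genes that fell. Among cells of at least 5000 UMIs in the Vmo1-led cluster (17 and 83 Dox cells, 15 Control cells), the median Hspa5 level was 578 and 727 CPM with Dox and 1125 CPM in the Control. Hsp90b1 had medians of 703 and 744 CPM with Dox and 1264 CPM in the Control, and Sdf2l1 of 17.1 and 33.4 CPM with Dox and 115 CPM in the Control. The median cell of both Dox libraries was below that of the Control for 26 of the 32 genes, and for all 16 that fell in the sums. In single cells this order was nearly as wide elsewhere, at 24 of the 32 genes in the supporting cell-like cluster (37 and 23 Dox cells, 13 Control cells) and 21 of the 32 in the Epyc-led cluster, where 1 of the 32 fell in the sums of each. The share of all genes in this order was not counted. With total count scaling the median log2 fold change of all genes was -0.12 in the Vmo1-led, -0.48 in the supporting cell-like and -0.09 in the Epyc-led cluster. With every cell thinned to 5000 UMIs, 24 of the 32 genes could be tested in the Vmo1-led cluster, their median log2 fold change was -0.54 and 1 was called, Hsp90b1 at -1.26.

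The cells behind these values need to be known. Of the Vmo1-led cells, 5 and 3 with Dox and 14 of the Control were the deepest copy of a barcode that other libraries also hold, and these cells carried 50.3% and 10.6% of the Dox UMIs and 98.0% of the Control UMIs. Without every shared barcode 12 and 84 Dox cells and 4 Control cells were left, too few to test. Other markers differed as well. The glial marker list summed to 523 and 617 CPM with Dox and 3816 CPM in the Control (8, 13 and 12 of its 18 genes detected), led by Cryab, a small heat shock protein also made outside glia, at 305 and 432 CPM with Dox and 3477 CPM in the Control. The cluster's own list, Reissner and vascular marginal epithelium, summed to 2212 and 2579 CPM with Dox and 6137 CPM in the Control, and Spp1 of the bone cell list stood at 0 and 0.71 CPM with Dox and 331 CPM in the Control. The part of these differences in the falls was not tested.

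Genes of the same pathway outside the 32 were read from 6 lists with 79 genes. In the Vmo1-led cluster 19 of the 79 fell and 1 rose. In the list of sensors and the PERK arm 0 of 11 were called. In the degradation list 10 of 12 lay below 0, with a median of -0.73, and 3 fell, among them Derl1, a channel component, with 42.7 and 47.2 CPM with Dox and 92.9 CPM in the Control. In the folding and glycan trimming list 3 of 16 fell: Sdf4, Fkbp2 and Ero1l. In the translocation list 5 of 14 fell and Srp72, a signal recognition particle subunit, rose to 134 and 169 CPM with Dox, against 82.4 CPM in the Control. Its deepest fall was Sec11c, a catalytic subunit of signal peptidase, at 35.6 and 38.9 CPM with Dox and 136 CPM in the Control (log2 fold change -1.85). In the oligosaccharyltransferase list 5 of 10 fell, with Dad1 at 164 and 176 CPM with Dox and 346 CPM in the Control. In the ER to Golgi list 3 of 16 fell: Tmed10, Surf4 and Sar1b.

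In the Epyc-led cluster 1 of the 32 genes fell and 0 rose, against 2.17% and 1.51% of all 10519 genes tested. Of its 12 Control cells, 7 had a barcode that other libraries also hold, and these carried 72.6% of the Control UMIs. The 3 deepest Control cells carried 40.3%. Pdia4 stood at 146 and 132 CPM with Dox and at 335 CPM in the Control (log2 fold change -1.27, SE 0.17, adjusted p = 0.0330, edgeR's quasi-likelihood test). Calr stood at 395 and 448 CPM with Dox and at 620 CPM in the Control, Pdia6 at 229 and 287 CPM with Dox and 429 CPM in the Control, and neither was called. Both Dox libraries were below the Control for these 3 genes. Hspa5 ran the other way, with 959 and 1014 CPM with Dox and 819 CPM in the Control, not called. The median of the 32 genes was -0.21, 21 lay below 0, and 8 had an unadjusted p of at most 0.05 in edgeR, all of them lower. Of all 10519 genes tested, 2495 had such a p in either direction, so the 8 are near the share over all genes. Of the other pathway genes Ost4 of oligosaccharyltransferase and Creb3l2, a membrane-bound transcription factor of the secretory pathway, fell, and 0 rose among 76 tested.

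The study's title names the reprogramming of supporting cells, which the supporting cell-like cluster stands for by its markers only. In this cluster 2 genes rose and 1 fell among 31 tested, with Edem1 below the count filter. Over all 8917 genes tested 5.99% rose and 3.18% fell, so both counts were near the share over all genes. Ssr4, a translocon-associated subunit, stood at 360 and 293 CPM with Dox and at 103 CPM in the Control (log2 fold change 1.67, SE 0.27, adjusted p = 0.00347, edgeR). Sec61b, the translocon subunit with no called difference in the Vmo1-led cluster, stood at 282 and 234 CPM with Dox and at 130 CPM in the Control. Both rose in each Dox library. Dnajb9 fell, with 60.5 and 49.5 CPM with Dox and 149 CPM in the Control (-1.41).

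None of the 5 folding chaperones was called in the supporting cell-like cluster. Hspa5 stood at 672 and 906 CPM with Dox and at 699 CPM in the Control, and Calr at 381 and 412 CPM with Dox and at 390 CPM in the Control, so for both the Control lay between the Dox libraries. Hsp90b1 stood at 789 and 983 CPM with Dox and at 1003 CPM in the Control, and Hyou1 at 68.3 and 67.4 CPM with Dox and at 97.5 CPM in the Control (log2 fold change -0.52), so both Dox libraries were below the Control for these. Canx ran the other way in these TMM-scaled sums, with 346 and 345 CPM with Dox and 306 CPM in the Control. Among cells of at least 5000 UMIs, the median cell, without TMM scaling, had 502 and 647 CPM of Hspa5 with Dox and 696 CPM in the Control. For Hsp90b1 it had 558 and 674 CPM with Dox and 1442 CPM in the Control, and for Hyou1 45.4 and 56.9 CPM with Dox and 102 CPM in the Control. It had 270 and 307 CPM of Calr with Dox and 325 CPM in the Control, and 270 and 305 CPM of Canx with Dox and 387 CPM in the Control. The median cell was thus lower with Dox for all 5 chaperones, which the TMM-scaled sums did not show for Hspa5, Calr and Canx. Before TMM scaling the sums were lower with Dox for all 5 too, with Canx at 297 and 309 CPM with Dox and 379 CPM in the Control. Their order thus depends on the scaling. P4hb stood at 149 and 168 CPM with Dox and at 117 CPM in the Control, and Ssr1 at 75.1 and 66.1 CPM with Dox and 138 CPM in the Control (adjusted p = 0.0586, edgeR). The median of the 31 genes was -0.02, and 16 lay below 0. Of the other pathway genes Atf4, the transcription factor of the PERK arm, rose to 211 and 213 CPM with Dox, against 106 CPM in the Control, Krtcap2 of oligosaccharyltransferase rose too, and 0 of 73 tested fell. Scaling to total counts moved the median of all genes to -0.48 and gave 7 falls and 1 rise (Ssr4) among the 31. Of all 8917 genes 1000 fell and 295 rose with that scaling, and of the 73 other pathway genes 17 fell and 0 rose. Without every shared barcode 0 of the 31 were called, against 9 falls and 87 rises among all 8331 genes tested. Cells with little Malat1 made up 56.9% and 50.0% of the Dox cells and 52.2% of the Control cells here. The 3 deepest Control cells carried 45.5% of the Control UMIs. The cluster's own supporting cell list summed to 1690 and 2299 CPM with Dox and 4495 CPM in the Control. The hair cell list summed to 388 and 239 CPM with Dox and 1316 CPM in the Control, and the fibroblast list to 1133 and 787 against 3710 CPM. The part of these differences was not tested.

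**Figure D4:**
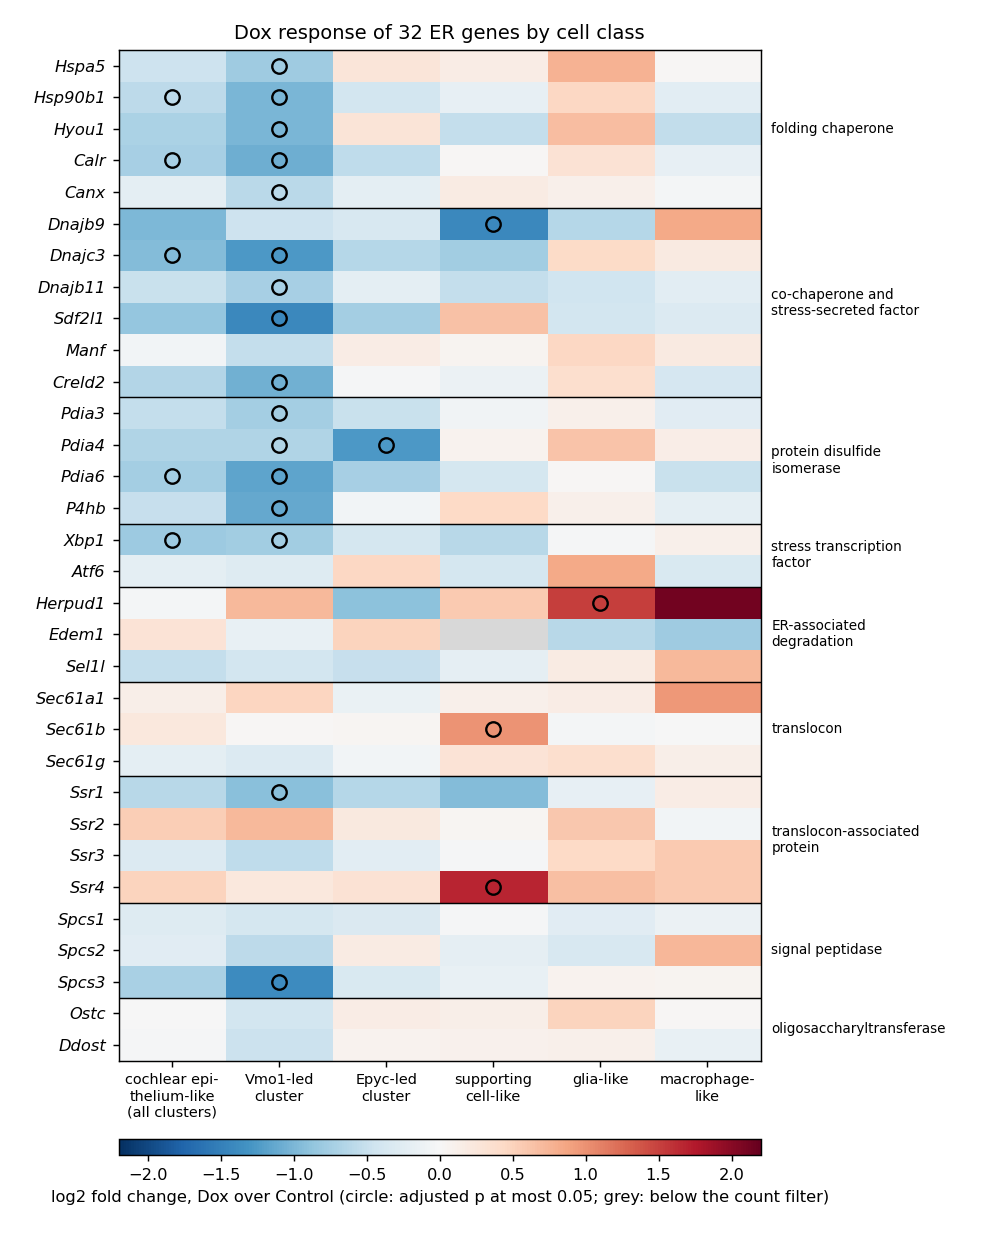
Log2 fold change, Dox over Control, of the 32 genes (rows, grouped by role) in 6 cell classes (columns), where a circle marks an adjusted p of at most 0.05 and grey a gene below the count filter. The Vmo1-led cluster has 16 circles, all on falls, and the supporting cell-like, glia-like and macrophage-like columns have 3, 1 and 0.

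Whether the response of the Vmo1-led cluster differed from that of the supporting cell-like cluster was tested directly, with the library as a block. For 6 of the 32 genes the log2 response was lower in the Vmo1-led cluster, against 2.34% of 10694 genes lower and 0.729% higher. They were P4hb at -1.56 (SE 0.31, adjusted p = 0.00585), Calr at -1.09 (SE 0.24, adjusted p = 0.0137), Sdf2l1 at -2.17 (SE 0.50, adjusted p = 0.0174), Ssr4 at -1.43 (SE 0.33, adjusted p = 0.0177), Hspa5 at -0.93 (SE 0.23, adjusted p = 0.0257) and Hsp90b1 at -0.82 (SE 0.22, adjusted p = 0.0430), all by edgeR's quasi-likelihood test of the interaction. The median difference over the 32 genes was -0.57, against -0.11 over all genes, and 26 lay below 0. The calls depend on the scaling and the tool: 1 was left with DESeq2 size factors and 0 with total count scaling, with no count filter, by DESeq2's Wald test or with cells thinned to 1000 or 5000 UMIs. With total count scaling the median difference was -0.20, against 0.25 over all genes, and 20 of the 32 lay below 0. Thinned to 5000 UMIs it was -0.57 over the 28 genes that could be tested. For the Epyc-led minus the supporting cell-like cluster 0 of 32 were called by edgeR or by DESeq2's Wald test. Of all genes, edgeR called 0.213% lower and 0% higher. At an unadjusted p of at most 0.05 in edgeR there were 6 of the 32, and 1155 of all 10805 genes tested.

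**Figure D5:**
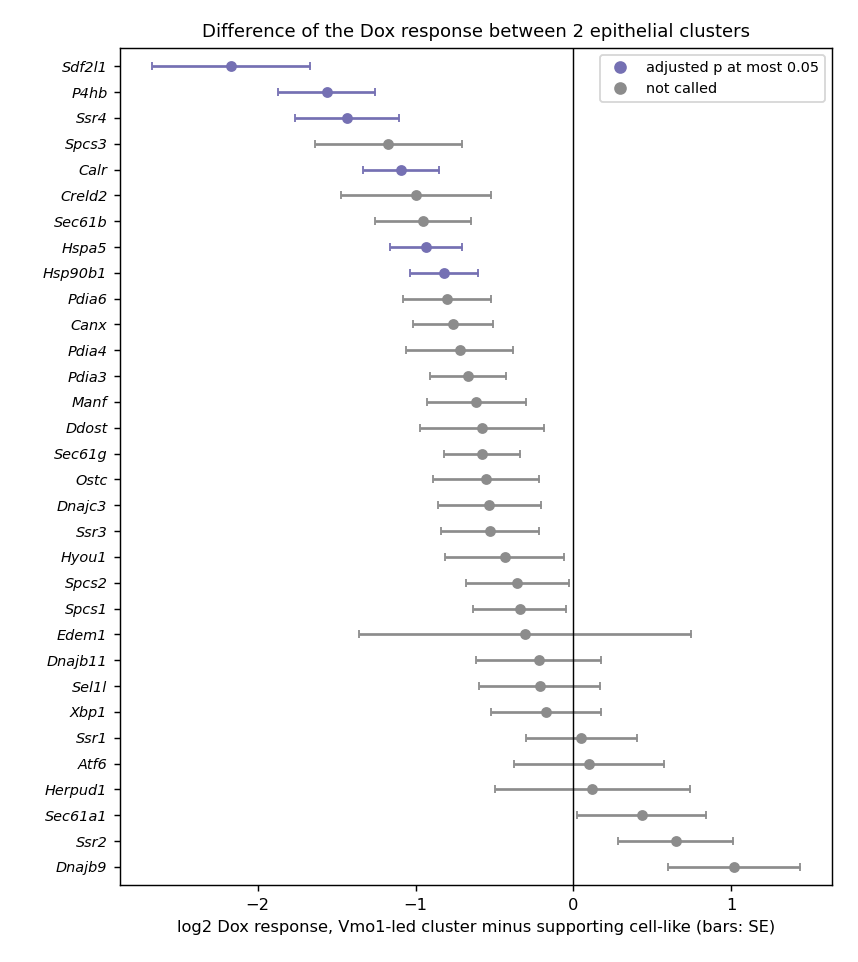
Difference of the log2 Dox response between the Vmo1-led and the supporting cell-like cluster for each of the 32 genes, with SE as the bar, purple where the adjusted p is at most 0.05. The points of 26 genes lie below 0, from Sdf2l1 at -2.17, and the 6 called genes are all on that side.

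In the pooled epithelium, where the Control and Dox libraries hold different mixtures of clusters, 5 of the 32 genes fell and 0 rose, against 4.83% and 6.08% of 13445 genes. Dnajc3 stood at 88.7 and 78.4 CPM with Dox and at 161 CPM in the Control (log2 fold change -0.95). Calr stood at 394 and 362 CPM with Dox and at 625 CPM in the Control, Pdia6 at 209 and 234 CPM with Dox and at 371 CPM in the Control, and Hsp90b1 at 993 and 947 CPM with Dox and at 1453 CPM in the Control. Xbp1 stood at 71.0 and 64.0 CPM with Dox and at 117 CPM in the Control (adjusted p = 0.0494, edgeR). All 5 had both Dox libraries below the Control. Hspa5 with 794 and 738 CPM with Dox and 1050 CPM in the Control was not called (adjusted p = 0.0791, edgeR). The median of the 32 was -0.47, against 0.02 for all genes, and 27 lay below 0. In edgeR 19 of the 32 had an unadjusted p of at most 0.05, 17 of them lower, as had 4137 of all 13445 genes in either direction. Without the count filter 0 were called, by DESeq2's Wald test 3 and with total count scaling 13. Of all genes 0, 518 and 916 fell in those settings. Among the 79 other pathway genes 10 fell and 1 rose, Srp72 again, with Creb3l2 at -1.38 and Sec11c at -1.17 as the deepest falls. Cells with shared barcodes held 49.0% and 12.9% of the Dox UMIs and 82.1% of the Control UMIs. Without these cells 1 of the 32 fell, as did 161 of all 12435 genes tested. The median of the 32 was then -0.11, against 0.17 for all genes.

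Read against the promoters, all 7 genes with the 19-base element fell in the Vmo1-led cluster, as did 7 of the 18 matched genes without it. In the pooled epithelium 4 of the 7 and 1 of the 18 fell. In the Epyc-led cluster 0 of the 7 and 1 of the 18 fell. Among supporting cell-like cells 0 of the 7 were called, while of 17 genes without the element 1 fell and 2 rose. The shares of all genes that fell were 8.94%, 4.83%, 2.17% and 3.18% in these classes, in that order. In glia-like cells 0 of the 7 were called and 1 of the 18 rose, and in macrophage-like cells 0 were called in either group. These counts describe the genes whose promoter was matched, and no test was made on them, since the members were chosen together for their roles. Of the 2 genes with the 11-base element, Dnajb11 fell in the Vmo1-led cluster and Herpud1, whose stretch is printed, did not.

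Glia-like cells (34 and 45 Dox cells, 28 Control cells), Schwann and satellite cells by markers such as Foxd3 and Cdh19, had 1 rise and 0 falls among the 32 genes, against 5.53% and 5.09% of 7625 genes. Herpud1 rose to 58.6 and 66.0 CPM with Dox, against 21.5 CPM and 7 UMIs in the Control (log2 fold change 1.52, SE 0.53, adjusted p = 0.0444, edgeR's quasi-likelihood test). The call was lost with total count scaling, without the count filter and by DESeq2's Wald test. Hspa5 stood at 1218 and 1701 CPM with Dox and at 860 CPM in the Control, Ssr4 at 393 and 339 CPM with Dox and at 230 CPM in the Control, and neither was called after adjustment. Both Dox libraries were above the Control for these 3 genes, which are the 3 with an unadjusted p of at most 0.05 in edgeR. Of all 7625 genes tested, 1706 had such a p, a larger share than among the 32. The median of the 32 was 0.17, and 23 lay above 0. Of the other pathway genes Ddit3, the stress factor CHOP, rose to 124 and 155 CPM with Dox, against 64.5 CPM in the Control, while Sec11c and Creb3l2 fell. The glial marker list summed to 4111 and 6106 CPM with Dox and 14482 CPM in the Control, and its part was not tested.

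The response of glia-like cells minus that of the pooled epithelium was above 0 for 29 of the 32 genes, with a median of 0.69 against 0.12 for all genes. None of the 32 was called by edgeR's quasi-likelihood test or DESeq2's Wald test. Of all genes, edgeR called 0.324% higher and 0.153% lower. At an unadjusted p of at most 0.05 in edgeR stood 1322 of all 11098 genes tested, and 12 of the 32. The lowest p among them was that of Pdia4, a difference of 1.38 (SE 0.36, adjusted p = 0.190, edgeR).

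In macrophage-like cells (46 and 26 Dox cells, 23 Control cells) 0 of the 32 genes were called by edgeR or by DESeq2's Wald test, against 0.374% risen and 0.374% fallen of 7745 genes. At an unadjusted p of at most 0.05 in edgeR there was 1 of the 32, Herpud1, and 665 of all 7745 genes tested. Herpud1 had 74.1 and 48.5 CPM with Dox and 13.9 CPM and 5 UMIs in the Control (log2 fold change 2.13, adjusted p = 0.259, edgeR). Hspa5 stood at 823 and 807 CPM with Dox and at 798 CPM in the Control, Hsp90b1 at 1101 and 945 CPM with Dox and at 1195 CPM in the Control, and Calr at 606 and 618 CPM with Dox and at 692 CPM in the Control. The median of the 32 was 0.01 and 16 lay on each side of 0. This class also held neutrophil-lineage RNA, at 22421 and 14988 CPM with Dox and 13541 CPM in the Control. The cochlear epithelium list summed to 14.6 CPM in Dox replicate 1, 583 CPM in Dox replicate 2 and 8.39 CPM in the Control. The macrophage list summed to 27478, 11449 and 26013 CPM in the same order. Of the 23 Control cells of this class, 4 had a barcode that other libraries also hold, and these carried 61.5% of the Control UMIs. The 3 deepest Control cells carried 50.6%. Minus the response of the pooled epithelium, 0 genes of the 32, and 0% of all genes, were called by edgeR, and DESeq2's Wald test called 0 of the 32. An unadjusted p of at most 0.05 in edgeR was found for 7 of the 32 and for 1128 of all 11323 genes tested.

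Among fibroblast-like cells, the cluster present with Dox and in the Control held 5 cells in Dox replicate 1, 75 in Dox replicate 2 and 31 in the Control, so Dox replicate 2 and the Control are set side by side with counting intervals and no test. All 32 genes were lower in Dox replicate 2, 24 of them by more than 1.5-fold. Of 9695 genes with at least 20 UMIs, 34.7% were lower and 16.2% higher by that much. The median log2 ratio was -0.95, against -0.26 over those genes. Hspa5 stood at 522 CPM in Dox replicate 2 (95% Poisson interval 496 to 549) and at 1153 CPM in the Control (1078 to 1232). Calr stood at 352 CPM in Dox replicate 2 (331 to 374) and at 817 CPM in the Control (754 to 884), and Creld2 at 25.3 CPM (19.8 to 31.8) in Dox replicate 2 and 72.2 CPM in the Control (54.4 to 94.0). For 30 of the 32 genes the intervals did not overlap, the exceptions being Spcs3 and Ssr4. How many of all genes had intervals apart was not counted, so this count says nothing particular to the 32. The 3 deepest cells held 7.88% of this cluster's UMIs in Dox replicate 2 and 37.7% in the Control. These intervals cover counting error only, and the 32 genes summed to 8269 CPM in the 5 cells of Dox replicate 1, 6703 CPM in Dox replicate 2 and 12029 CPM in the Control, before scaling.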

How the data were processed

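Single-cell 10x libraries were made from cochlear explants, for each of which the authors deposited UMI counts by gene and barcode. Cell Ranger 5.0, STAR and Seurat 3.2.2 with build mm10 (GRCm38) are named in the submitters' processing notes, while the matrix headers give version 3.1.0; the sources used here do not give whether introns were counted. A cell was kept with 200 genes or more and no more than 20% of UMIs from mitochondrial genes (152, 98 and 149 barcodes failed in Dox replicate 1, Dox replicate 2 and the Control), and of each shared barcode only the deepest copy. Clustering left out the 32 members, 79 pathway genes, ribosomal protein and mitochondrial genes, 229 in all found in the files (scanpy 1.11.5, leidenalg 0.10.2, Python 3.11.15; 2000 variable genes, 30 components, 15 neighbours, resolution 1.0). Clusters were named from at least 3 fixed markers among 25 leading genes. Scrublet marked 1, 0 and 2 doublets, too few for the caller to have worked, so no doublets were removed.

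Counts were summed per library and class (at least 20 cells in each library, or 10 for single epithelial clusters) and tested with edgeR 4.0.16 (R 4.3.3; quasi-likelihood, TMM, filterByExpr, Benjamini-Hochberg over all genes, called at an adjusted p of at most 0.05); DESeq2 1.42.0 was an alternative. On simulated data for the pooled epithelium (13188 genes) 7.94%, 91.2% and 100% of 2-fold, 4-fold and 8-fold changes were called, and for glia-like cells (7330 genes) 9.52%, 73.2% and 95.5%. Every gene was simulated with the same dispersion of 0.05, which was not estimated from the data. These shares therefore need not hold for the real tests. Summed UMIs per class ranged from 297333 to 19374392. Values per library are given for up to 12 members per class by smallest p and up to 4 genes per pathway list; further ones were chosen after their values were seen, and 1 pathway gene that met the rule is not reported here. The Vmo1-led and Epyc-led fits, the fibroblast description and the shared-barcode rule were added after the data had been seen. Members and lists were chosen with earlier results of these data known. Promoters came from RefSeq, and protein sequences were not used here.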

Additional observations from a re-analysis of the deposited data

Results flagged for a closer look

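For 6 genes the Dox response differed between 2 epithelial clusters by a test of the difference itself, edgeR's quasi-likelihood test of the interaction with the library as a block. The response of the Vmo1-led cluster minus that of the supporting cell-like cluster, on the log2 scale, was -1.56 for P4hb, -1.09 for Calr, -2.17 for Sdf2l1, -1.43 for Ssr4, -0.93 for Hspa5 and -0.82 for Hsp90b1. P4hb, Calr, Sdf2l1, Hspa5 and Hsp90b1 fell in the Vmo1-led cluster and were not called in the supporting cell-like one, while Ssr4 was not called in the Vmo1-led cluster and rose in the supporting cell-like one. Cells whose barcode occurs in other libraries held 50.3% and 10.6% of the Dox UMIs and 98.0% of the Control UMIs of the Vmo1-led cluster, and 63.0% and 0% of the Dox UMIs and 45.5% of the Control UMIs of the supporting cell-like cluster. Their part in the difference was not tested. The 6 calls became 1 with DESeq2 size factors and 0 with total count scaling, without the count filter, by DESeq2's Wald test and with cells thinned to 1000 or 5000 UMIs.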

How the results depend on the processing

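No paired analysis was possible because the Control has 1 library and the groups share fewer than 2 replicate numbers. The alternatives on macrophage-like cells at resolution 2, with the strict cell filter and with each library clustered alone gave too few cells, as did each library clustered alone for supporting cell-like cells, and leaving out cells of little Malat1 or under 5000 UMIs for both. Leaving out every shared barcode gave too few macrophage-like, Vmo1-led and Epyc-led cells, and the clustering alternatives were not run for the Vmo1-led and Epyc-led clusters. Further, leaving out a Dox replicate leaves 1 library a side, which gives medians and no calls. Other alternatives were chosen after seeing the data, namely those on shared barcodes, on cells under 5000 UMIs, on thinning to 5000 UMIs and on single epithelial clusters. The cause of these changes was not tested except where fewer cells or genes were used by construction.

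Of the 32 genes, 5 were called in the pooled epithelium. The count was 16 for the Vmo1-led, 1 for the Epyc-led and 3 for the supporting cell-like cluster alone, 13 with total count scaling, 0 without the count filter, 3 by DESeq2's Wald test, 3 with all genes in the clustering, 9 at resolution 2, 10 with the strict cell filter, 9 with shallower copies kept, 1 with each library clustered alone, 0 thinned to 1000 UMIs, 1 thinned to 5000 UMIs, 2 without cells of little Malat1 and 1 without every shared barcode. The other settings gave 4 to 6. Of the 79 pathway genes 11 were called, and 20, 2 and 2 in those clusters alone, 17 with total count scaling, 0 without the filter, 6 by the Wald test, 17 at resolution 2, 19 with the strict filter, 3 with libraries clustered alone, 1 and 3 thinned to 1000 and 5000 UMIs, and 3 without every shared barcode. The median log2 fold change of the members, -0.47, became -0.59, -0.21 and -0.018 in the clusters alone, -0.71 with total count scaling, -0.42 without the filter, -0.36 with all genes in the clustering, -0.13 at resolution 0.5, -0.21 at resolution 2, -0.34 with the strict filter, -0.34 with shallower copies kept, -0.35 with libraries clustered alone, 0.052 and -0.30 thinned to 1000 and 5000 UMIs, and -0.11 without every shared barcode; it ran between -0.48 and -0.42 without either Dox replicate. Total count scaling moved the median of all genes to -0.22 here, -0.12 in the Vmo1-led cluster, -0.48 in the supporting cell-like cluster and -0.23 in glia-like cells.

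In the Vmo1-led cluster the 16 called members became 5 by the Wald test and ran between 12 and 18 under the other unthinned settings. Thinned to 1000 or 5000 UMIs, 1 was called, of 4 and 24 tested. Its 20 called pathway genes became 13 without the filter and 3 by the Wald test. Thinned to 1000 UMIs 2 of 3 tested were called, and thinned to 5000 UMIs 1 of 34. The median of -0.59 became -0.72 with total count scaling. Thinned, it was -1.06 over 4 genes at 1000 UMIs and -0.54 over 24 genes at 5000 UMIs. Without either Dox replicate it ran between -0.65 and -0.61. In the Epyc-led cluster 1 called member became 4 with total count scaling, 0 without the filter, 0 thinned to 1000 UMIs and 3 thinned to 5000 UMIs; 2 pathway genes became 10, 0, 0 and 1 in those settings, 1 by the Wald test, 1 in edgeR's legacy fit and 6 without cells of little Malat1. Its median of -0.21 became -0.35 with total count scaling and -0.16 without the filter. Thinned, it was -0.33 over 10 genes at 1000 UMIs and -0.077 over 28 genes at 5000 UMIs. It ran between -0.21 and -0.18 without either Dox replicate.

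In the supporting cell-like cluster 3 called members (2 rises, 1 fall) became 8 with total count scaling (1 rise, 7 falls). The count was 1 by the Wald test, 0 thinned to 1000 UMIs, 1 thinned to 5000 UMIs and 0 without every shared barcode. Called pathway genes numbered 2 in the main fit, both rises, and 17 with total count scaling, all falls. They numbered 0 without the filter, 0 by the Wald test, 5 at resolution 2 and 5 with the strict filter. With shallower copies kept there was 1, and with either thinning or without every shared barcode 0. The median of -0.02 became -0.52 with total count scaling and -0.095 without every shared barcode. Thinned to 5000 UMIs it was -0.24 over the 25 genes tested. Without either Dox replicate it ran between -0.06 and 0.03.

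In glia-like cells the 1 called member was 0 with total count scaling, without the filter, by the Wald test, with all genes in the clustering, at resolution 2, with libraries clustered alone, thinned to 1000 UMIs, without every shared barcode and without cells under 5000 UMIs. The 3 pathway genes became 1 without the filter, 0 by the Wald test, 1 with all genes in the clustering, 1 with libraries clustered alone, 0 thinned to 1000 UMIs and 0 without every shared barcode. The median of 0.17 became -0.083 with total count scaling and 0.36 over the 10 genes tested when thinned to 1000 UMIs. It ran between 0.16 and 0.27 without either Dox replicate. In macrophage-like cells 0 members were called under every setting run, while the median of 0.01 became -0.044 with total count scaling. Thinned, it was -0.63 over 8 genes at 1000 UMIs and 0.45 over 25 genes at 5000 UMIs. Without either Dox replicate it ran between -0.039 and -0.0058.

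For the difference of the response between the Vmo1-led and the supporting cell-like cluster, 6 calls became 1 with DESeq2 size factors and 0 with total count scaling, without the filter, by the Wald test and with either thinning. The median differences without either Dox replicate ran between -0.60 and -0.55 for this pair, between -0.18 and -0.14 for the Epyc-led minus the supporting cell-like cluster, and, minus the pooled epithelium, between 0.51 and 0.71 for glia-like cells and between 0.32 and 0.38 for macrophage-like cells. Single genes called in the main fit or under the alternative reversed in 5 cases. In the pooled epithelium Calr was 0.020 in the supporting cell-like cluster alone, and Os9 was 0.10 thinned to 5000 UMIs. Hsp90b1 there was 0.052 thinned to 1000 UMIs and 0.046 without every shared barcode. In the Vmo1-led cluster Ero1l was 0.85 thinned to 5000 UMIs. For single genes, 1205 of the values under an alternative counted as unchanged, 210 kept direction and lost the call and 42 kept direction and gained it. Unchanged includes genes called in neither setting, whatever their direction. It also includes values without a Dox replicate, which have no call, where they stayed close to the main value.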
